A study of Mus musculus with 6 samples.

Results

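The genes described here move glucose into cells, break it down to pyruvate and lactate, pass it through the pentose phosphate pathway, or store it as glycogen and release it again. The list named 39 genes, and 35 of them had at least 1 probe set (a group of short probes for the same transcript) that named the gene alone, out of 18193 genes measured. Gpi1, Gapdh, Eno1 and G6pdx had no such probe set and were not analysed here. RNA came from whole uteri of female mice at 3.5 dpc (days post coitum, counted from the vaginal plug), hybridised to 6 Affymetrix arrays, 3 for the Arid1a f/f and 3 for the Arid1a d/d genotype. All females had been mated to C57BL/6 males. Both genotypes carry floxed Arid1a alleles. In Arid1a d/d mice, Cre recombinase expressed from 1 allele of the Pgr gene removes the floxed part in cells that make the progesterone receptor, and other cells of the uterus keep it. Arid1a f/f mice carried no Cre by the genotypes in the methods, so loss of Arid1a and the altered Pgr allele cannot be told apart. Nothing in the labels ties a sample to a mouse of its own, so the p-values rest on the spread among these 6 samples, which may be technical.

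Glucose enters cells through carriers of the SLC2A (GLUT) family and is trapped by hexokinase. Glycolysis then turns it into pyruvate, which goes either to mitochondria, where pyruvate dehydrogenase kinases (PDK) hold entry back, or to lactate, which leaves or enters cells with pyruvate through SLC16A carriers. The pentose phosphate pathway branches off early and supplies ribose for nucleotides and NADPH for synthesis. The endometrium stores glycogen under ovarian steroid control, and stromal cells take up more glucose as they become decidual cells.

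Arid1a itself, the targeted gene, had intensities of 83.6, 86.9 and 103.9 on the Arid1a f/f arrays and 51.9, 51.9 and 58.2 on the Arid1a d/d arrays, which is -0.76 on the log2 scale (standard error 0.12, adjusted p = 0.0120, limma). Whether this probe set lies in the deleted part is not known here. Intensities are on the linear scale of the deposited table, on which the median of all values was 3.12, and the median of each array was 3.05 to 3.17. The table has no detection calls, so a value near the median cannot be told from background. Markers of uterine stroma and smooth muscle were bright on every array, and the means of all 4 erythroid markers measured were below the median in both genotypes. Summed over the list, the 11 epithelial markers measured were at 1167 to 1248 in Arid1a f/f uteri and at 1227 to 2404 in Arid1a d/d uteri, with 2 called higher. The 10 endothelial markers were at 556 to 581 and at 240 to 291, with 9 called lower. The 10 stromal fibroblast markers were at 10780 to 11840 and at 8370 to 10030, with 1 called lower. The 8 leukocyte markers measured were at 325 to 438 and at 234 to 274, with 1 called lower (Ptprc) and Itgam below the median of all intensities. In log2 fold change, 9 epithelial markers were above 0 and 2 below, and 1 leukocyte marker (Cd68) was above 0 and 7 below. These shifts accompany every result below, and their part in them was not tested. In RNA from whole tissue, fewer cells of a type and less RNA per cell cannot be told apart. Arid1a d/d replicate 2, which had the highest epithelial sum, was also the highest array for 11 of the 35 genes and the lowest for 11 others.

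The promoters of 5 of the 7 genes that passed the test are shown first, because they are the control regions nearest to the transcripts described below. The sequences are the 250 bases before the start site from RefSeq (build GRCm38.p6), 5′ to 3′ on the strand of the gene. Capitals mark the core of the hypoxia-inducible factor (HIF) element, ACGTG or GCGTG, on either strand (CACGT and CACGC in the printed letters where it lies on the other strand). It is an element known from many glycolytic genes. Slc16a1, Pgam1 and Tpi1 were higher in Arid1a d/d uteri, and Pfkp and Pdk4 lower. Slc2a3 has no entry in the promoter table, and Aldoc, whose intensities are near the median of the table, has 2 start sites with 1 HIF core before each and is not printed.
Slc16a1 (chr3:104638414-104638663, plus strand): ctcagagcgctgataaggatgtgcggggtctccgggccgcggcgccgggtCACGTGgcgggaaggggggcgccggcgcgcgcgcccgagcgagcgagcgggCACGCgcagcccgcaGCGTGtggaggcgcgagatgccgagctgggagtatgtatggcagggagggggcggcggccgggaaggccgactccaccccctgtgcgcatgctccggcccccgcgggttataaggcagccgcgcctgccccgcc
Pgam1 (chr19:41911621-41911870, plus strand): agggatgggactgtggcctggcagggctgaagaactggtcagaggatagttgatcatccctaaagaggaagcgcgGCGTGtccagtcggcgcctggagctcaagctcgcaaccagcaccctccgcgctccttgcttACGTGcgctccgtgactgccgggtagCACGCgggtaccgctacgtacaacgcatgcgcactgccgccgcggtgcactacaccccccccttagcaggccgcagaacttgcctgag
Tpi1 (chr6:124814159-124814408, minus strand): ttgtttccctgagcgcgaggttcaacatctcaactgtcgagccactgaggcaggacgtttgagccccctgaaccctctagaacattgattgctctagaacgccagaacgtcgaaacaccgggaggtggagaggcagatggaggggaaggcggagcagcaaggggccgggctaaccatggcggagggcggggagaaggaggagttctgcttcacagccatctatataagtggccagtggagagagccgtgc
Pfkp (chr13:6648772-6649021, minus strand): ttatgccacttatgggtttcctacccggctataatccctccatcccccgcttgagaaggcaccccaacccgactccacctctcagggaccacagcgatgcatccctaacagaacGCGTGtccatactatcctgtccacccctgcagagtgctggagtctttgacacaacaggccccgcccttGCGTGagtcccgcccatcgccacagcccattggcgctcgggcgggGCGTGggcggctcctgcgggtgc
Pdk4 (chr6:5496279-5496528, minus strand): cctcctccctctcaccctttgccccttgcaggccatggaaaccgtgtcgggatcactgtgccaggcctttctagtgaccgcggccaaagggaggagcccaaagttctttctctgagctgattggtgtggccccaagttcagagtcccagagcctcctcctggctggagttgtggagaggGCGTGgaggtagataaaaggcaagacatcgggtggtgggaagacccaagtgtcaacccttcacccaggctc
Slc16a1 and Pgam1, which rose, and Pfkp and Pdk4, which fell, all hold the HIF core within these 250 bases, and Tpi1 does not. The CACGTG in the Slc16a1 sequence is an E-box, a site for MYC and related factors, and it holds ACGTG once on each strand. In windows of 300 bases that reach 50 bases past the start site, ACGTG or GCGTG was found in 35 of 45 windows of the 33 genes with an entry (77.8%), against 43.8% of 32851 windows of all genes. The E-box CACGTG stood in 13.3% of the windows of these genes and in 7.15% of all windows. TGTTCT, which is one side of the progesterone response element, stood in 9 of 45 windows and in 19.0% of all windows. A match describes these letters alone and is not evidence of binding.

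Of the 35 genes, 3 rose and 4 fell in Arid1a d/d uteri at an adjusted p under 0.05 in limma, where 7.43% of all genes passed in either direction. Slc16a1, Pgam1 and Tpi1 rose by between 1.42-fold and 2.36-fold, while Slc2a3, Pfkp, Pdk4 and Aldoc fell. The 3 higher genes are 8.57% of those measured, against 3.37% of all genes called higher, and the 4 lower genes are 11.4%, against 4.06% of all genes called lower. At an unadjusted p under 0.05, 4 were higher (11.4%, the same share as the 11.4% of all genes) and 10 lower (28.6%, against 13.5% of all genes). The log2 fold change was above 0 for 14 of the 35 genes, and for 46.5% of all genes. Its median was -0.074 over these genes and -0.018 over all genes. The 3 arrays of each genotype did not overlap on 16 of the 35 genes (45.7%), where 29.4% of all genes had no overlap. Of these 16, 5 were higher (14.3%, against 13.4% of all genes) and 11 lower (31.4%, against 16.0%). The shares of all genes cover every brightness, while 32 of the 35 genes stayed in a fit without dim probe sets. Shares among genes of similar brightness were not taken. The list was also chosen with earlier results of these data known, so these shares cannot show an excess. The other 28 genes did not pass the test, which does not show that they were equal. These counts moved when 1 array was left out. Omitting an Arid1a f/f array left 3 higher and 2 lower genes for replicate 1, 0 and 1 for replicate 2, and 0 and 3 for replicate 3. Omitting an Arid1a d/d array left 3 and 2 for replicate 1, 1 and 2 for replicate 2, and 2 and 3 for replicate 3.

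**Figure D1:**
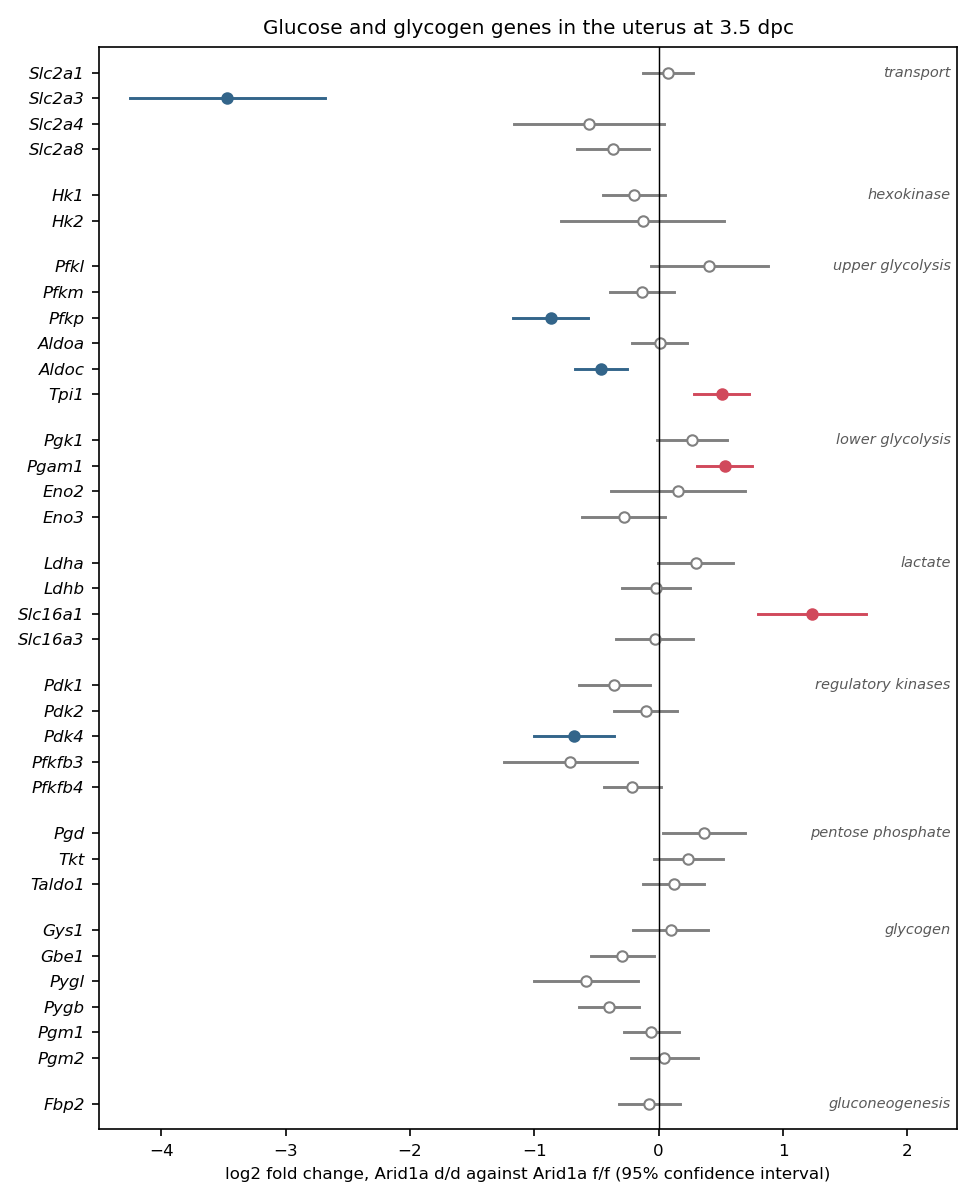
Horizontal axis, log2 fold change of Arid1a d/d against Arid1a f/f uteri for the 35 glucose and glycogen genes, grouped by role, from 3 arrays per genotype. Bars are 95% confidence intervals from limma, and filled points, blue for lower and red for higher, have an adjusted p under 0.05. Slc2a3 at -3.47 stands far to the left and Slc16a1 at 1.24 is the highest.

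Among the glucose transporters, the large change was in Slc2a3, which encodes GLUT3, a carrier with high affinity for glucose. Its intensity was 322, 228 and 438 on the Arid1a f/f arrays and 33.0, 16.7 and 43.2 on the Arid1a d/d arrays. Every Arid1a d/d array lay far below every Arid1a f/f array. The mean was 330 ± 105 (SD, n = 3) against 31.0 ± 13.4 (SD, n = 3), which is 11.1-fold lower as the difference of mean log2 values (log2 fold change -3.47, standard error 0.34, adjusted p = 0.00261, limma). The call was kept in limma whichever array was left out, at -3.76 to -3.07. Slc2a3 has 4 probe sets, and they do not all show this. The bright ones, the one above and another at -3.67 (adjusted p = 0.00332, limma), carry the suffixes _s_at and _x_at, by which Affymetrix marks probe sets whose probes may match more than 1 transcript. The other pair had means of 2.22 and 2.02 in Arid1a f/f uteri, below the median of all intensities, with log2 fold changes of -0.23 and -0.0046. Without probe sets of those suffixes the call of Slc2a3 is therefore lost (adjusted p = 0.323, limma). Which other transcripts the bright probe sets may match is not known here.

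Slc2a1, which encodes GLUT1, the carrier of most tissues and of decidual cells, was close between the genotypes. It had 49.4, 49.4 and 48.2 on the Arid1a f/f arrays and 53.3, 51.0 and 50.7 on the Arid1a d/d arrays. The groups did not overlap, but the difference was small, with a log2 fold change of 0.077 (95% confidence interval -0.13 to 0.28, adjusted p = 0.739, limma). Averaged over its 3 probe sets, the value was -0.012. Slc2a4, the insulin-responsive carrier GLUT4, had 29.3, 14.2 and 16.1 against 15.9, 12.8 and 10.3. Its difference of -0.56 (interval -1.17 to 0.041) rested largely on Arid1a f/f replicate 1, and it was -0.24 without that array. The 7 adipocyte markers measured are of a cell type that also makes GLUT4. They summed to 138, 55.3 and 81.9 in Arid1a f/f uteri and to 98.3, 250 and 159 in Arid1a d/d uteri. None was called, and Lep and Ucp1 were below the median of all intensities. In log2 fold change, 5 of them were above 0 and 2 (Pck1 and Ucp1) below. The part of these markers in the level of Slc2a4 was not tested. Slc2a8, an intracellular member of the family, had 22.7, 22.7 and 19.98 against 17.0, 14.6 and 19.5, with no overlap and a log2 fold change of -0.36 that did not pass (adjusted p = 0.162, limma). Taken within each array, the log2 difference between Slc2a1 and Slc2a3 was higher in Arid1a d/d uteri by 3.55 (standard error 0.49), with no overlap between genotypes. This was 1 of 11 isoform pairs compared by an exact two-sided permutation test, in which 3 arrays against 3 cannot go below p = 0.1, the value reached here (0.275 after adjustment over the pairs). The genotypes were also apart for Pfkl and Pfkp. They were apart for the pairs of Aldoa with Aldoc and of Slc16a1 with Slc16a3 too, but Slc16a3 and the Arid1a d/d mean of Aldoc were under the median of the table, and these differences say nothing of a shift between isoforms. They overlapped for the other 7 pairs, with exact permutation p-values of 0.2 to 0.9. Without probe sets of the suffixes named above the difference for Slc2a1 and Slc2a3 was 0.30. There Slc2a3 was under the median of the table in both genotypes, so this value too says nothing of a shift between isoforms.

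**Figure D2:**
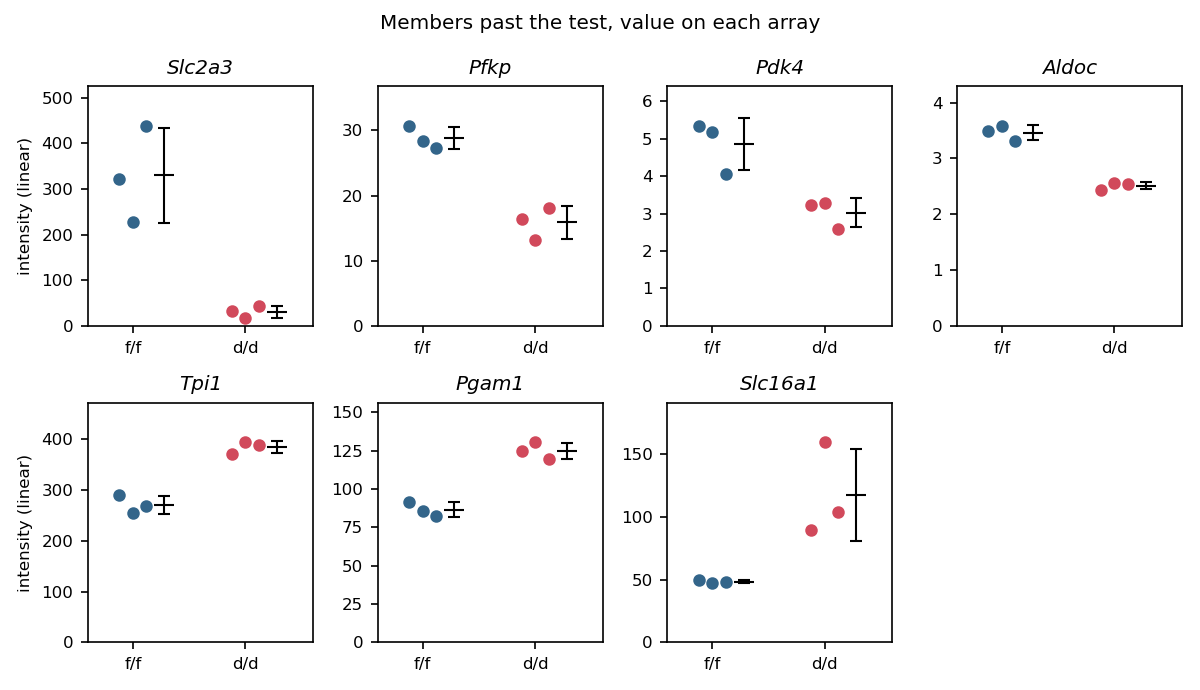
Intensity on the linear scale of the deposited table (vertical axes, each from 0) of the 7 genes past the test, on the 3 Arid1a f/f arrays (blue) and the 3 Arid1a d/d arrays (red). Black bars are the mean and SD of each genotype. None of the 7 genes has overlapping groups, and Slc16a1 reaches 159 on Arid1a d/d replicate 2.

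Hexokinase, which adds the phosphate that keeps glucose in the cell, did not pass the test in either measured form. Hk1, the form of most tissues, had 84.4, 71.4 and 70.7 on the Arid1a f/f arrays and 68.1, 67.9 and 61.0 on the Arid1a d/d arrays, with a log2 fold change of -0.20 (interval -0.45 to 0.052). Hk2, the inducible form, was uneven among the Arid1a d/d arrays. It had 21.3, 21.2 and 26.0 against 14.4, 35.4 and 17.6, so that Arid1a d/d replicate 2 was the highest of all arrays and the other Arid1a d/d arrays were the lowest. Its log2 fold change was -0.13 (interval -0.78 to 0.52).

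Of the isoforms of phosphofructokinase, the enzyme of the committed step of glycolysis, only Pfkp passed the test. Pfkp, which encodes the platelet form, had 30.7, 28.4 and 27.4 on the Arid1a f/f arrays and 16.4, 13.2 and 18.2 on the Arid1a d/d arrays. It fell 1.83-fold with no overlap (log2 fold change -0.87, standard error 0.13, adjusted p = 0.0116, limma). Only its brightest probe set shows this, since the others had 0.024 and 0.12 at means below the median of all intensities, and with all 3 averaged the value was -0.24 and did not pass (adjusted p = 0.103, limma). The call of Pfkp was lost without Arid1a f/f replicate 2 (-0.88, adjusted p = 0.0526, limma). Pfkl, the liver form, had 14.9, 8.98 and 8.95 against 11.8, 16.0 and 14.8, and its groups overlapped through Arid1a f/f replicate 1 (log2 fold change 0.41, interval -0.062 to 0.88). Pfkm, the muscle form, had -0.13 (interval -0.39 to 0.12). The log2 difference between Pfkl and Pfkp within an array was higher in Arid1a d/d uteri by 1.28 (standard error 0.30), with no overlap. It too combines the fold changes of Pfkl and Pfkp given above. Its p was the smallest that the exact permutation test allows, 0.1 (0.275 after adjustment over the pairs).

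In the steps that follow, Tpi1 rose. Its product, triosephosphate isomerase, lets both products of the split sugar go on through glycolysis. Tpi1 had 289, 254 and 268 on the Arid1a f/f arrays and 371, 393 and 389 on the Arid1a d/d arrays. Each genotype was tight and they did not overlap (log2 fold change 0.51, standard error 0.097, adjusted p = 0.0241, limma). All 3 probe sets of Tpi1 were higher on every Arid1a d/d array, at 0.38, 0.51 and 0.70, the first with an adjusted p of 0.0524 in limma. The call was lost without replicate 2 or 3 of either genotype, at 0.46 to 0.50. The brightest probe set of Tpi1, used above, carries the suffix _x_at. Without probe sets of the suffixes _s_at and _x_at the next brightest stood for Tpi1, and the call was lost (0.38, adjusted p = 0.0574, limma). Aldoa, the main aldolase, was almost level, with 282, 280 and 275 against 263, 304 and 276 (log2 fold change 0.0071, interval -0.22 to 0.23). Aldoc, known as the brain aldolase, had 3.49, 3.58 and 3.31 against 2.44, 2.56 and 2.54 and fell (log2 fold change -0.46, standard error 0.092, adjusted p = 0.0284, limma). These values lie around the median of all intensities, and the call of Aldoc was lost whichever array was left out, so its size is uncertain.

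Of the lower steps, Pgam1 rose and the others measured did not pass. Pgam1 encodes phosphoglycerate mutase, which moves the phosphate within the molecule. It had 91.6, 85.7 and 82.2 on the Arid1a f/f arrays and 125, 130 and 120 on the Arid1a d/d arrays. This was a rise of 1.45-fold with no overlap (log2 fold change 0.53, standard error 0.096, adjusted p = 0.0203, limma), and its call was lost without Arid1a f/f replicate 2 or 3 or Arid1a d/d replicate 2, at 0.49 to 0.53. Pgk1, which encodes phosphoglycerate kinase and makes the first ATP of the pathway, had 223, 193 and 183 against 211, 266 and 244. Its groups overlapped through Arid1a d/d replicate 1, with a log2 fold change of 0.27 (interval -0.015 to 0.55), and its other probe sets had 0.50 and 0.33. Eno2, the neuronal enolase, had 0.16 (interval -0.38 to 0.70) at intensities of 3.42 to 6.31, and Eno3, the muscle enolase, had -0.28 (interval -0.62 to 0.055).

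The lactate and pyruvate carrier Slc16a1 had the largest rise. It encodes MCT1, which carries lactate, pyruvate and ketone bodies with a proton across the cell membrane. Its intensity was 49.5, 47.6 and 47.9 on the Arid1a f/f arrays and 89.3, 159 and 104 on the Arid1a d/d arrays. The Arid1a f/f arrays lay close together, and every Arid1a d/d array was above them. The rise was 2.36-fold (log2 fold change 1.24, standard error 0.19, adjusted p = 0.0121, limma). Without Arid1a d/d replicate 2 it was 1.00 and kept its call, while without Arid1a f/f replicate 2 or 3 it was 1.23 and lost it (adjusted p = 0.0574 and 0.0515, limma). A second probe set, at a mean of 1.96 in Arid1a f/f uteri, had -0.076, and with both averaged the rise was 0.58 and did not pass (adjusted p = 0.0550, limma). Slc16a3, the lactate exporter MCT4, was below the median of all intensities on every array. Ldha, which encodes the main subunit of lactate dehydrogenase in glycolytic cells, had 302, 287 and 263 against 291, 404 and 360 (log2 fold change 0.30, interval -0.0084 to 0.60). Ldhb, the other subunit, had -0.023 (interval -0.30 to 0.25). The log2 difference of Ldha over Ldhb within an array was higher by 0.32 (standard error 0.26) in Arid1a d/d uteri, with overlap between the genotypes (p = 0.4, exact permutation test).

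All 5 genes of regulatory kinases had a log2 fold change below 0, where 46.5% of all genes were above 0. Of the 5, 1 passed the test, where 4.06% of all genes were called lower. Pdk4, the pyruvate dehydrogenase kinase induced by fasting and fatty acids, had 5.34, 5.18 and 4.06 on the Arid1a f/f arrays and 3.22, 3.27 and 2.59 on the Arid1a d/d arrays. It fell with no overlap (log2 fold change -0.68, standard error 0.14, adjusted p = 0.0329, limma). The Arid1a d/d mean of Pdk4, 3.03, was under the median of all intensities and the fold is uncertain in size, and its call was kept only without Arid1a f/f replicate 3 among the fits that left out 1 array. Pdk1, a kinase of the same family known as a HIF target, had 15.8, 15.9 and 19.7 against 14.0, 14.2 and 11.97 (log2 fold change -0.36, adjusted p = 0.163, limma). Another of its 4 probe sets passed at -0.41 (adjusted p = 0.0476, limma), and the other two had 0.078 and 0.057. Pdk2 had -0.11 (interval -0.36 to 0.15). Pfkfb3 makes fructose 2,6-bisphosphate, the activator of phosphofructokinase, and is known for its role in endothelial glycolysis. It had 45.8, 37.0 and 57.9 against 24.7, 22.4 and 40.4. Arid1a d/d replicate 3 overlapped the Arid1a f/f arrays, and the log2 fold change of -0.71 did not pass (interval -1.25 to -0.18, adjusted p = 0.139, limma). Without that array it passed at -0.97. The summed endothelial markers were also lower on every Arid1a d/d array, as given above, and their part in these values was not tested. Pfkfb4, of the same function, had 9.59, 8.66 and 9.66 against 8.46, 8.12 and 7.50, with no overlap and a log2 fold change of -0.21 (interval -0.44 to 0.016).

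**Figure D3:**
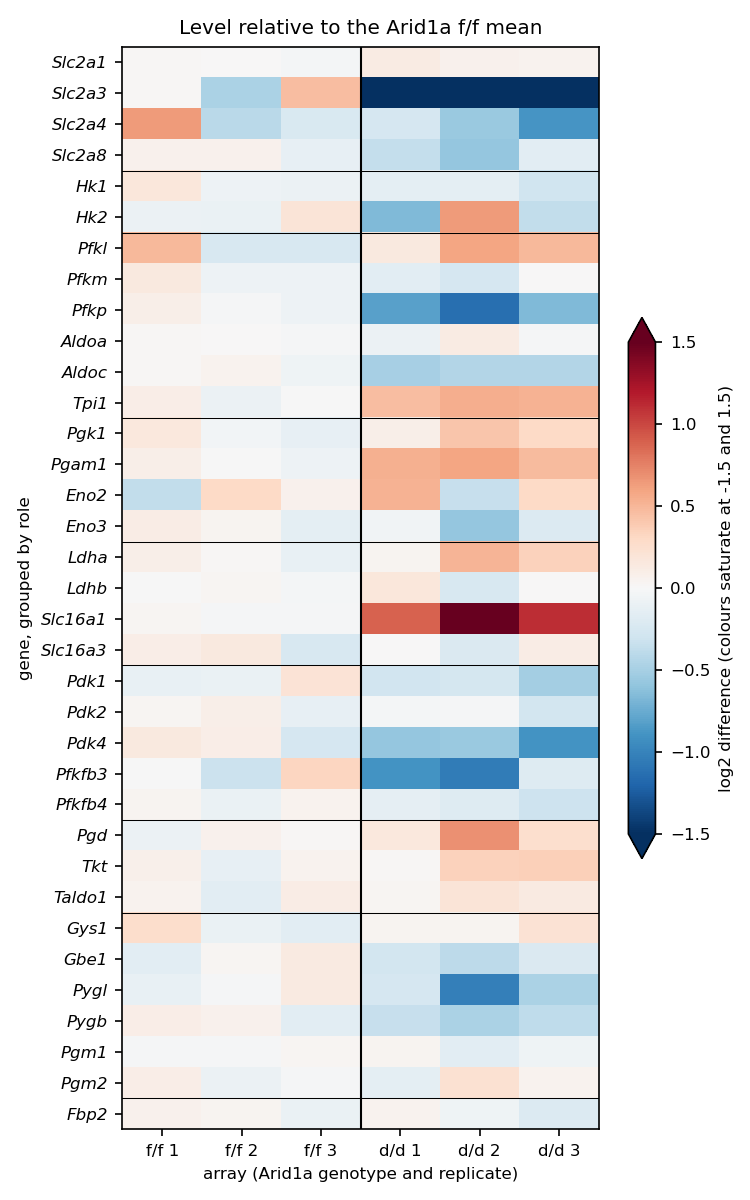
Log2 level of the 35 genes (rows, grouped by role) on each of the 6 arrays (columns), relative to the mean of the 3 Arid1a f/f arrays, with blue for lower and red for higher and colours saturated at -1.5 and 1.5. Arid1a d/d replicate 2 has the strongest colour for Slc16a1, Pgd and Pygl, and the Arid1a f/f arrays differ among themselves for Slc2a3, Slc2a4, Pfkl and Pfkfb3.

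The 3 genes of the pentose phosphate pathway had values above 0, as 46.5% of all genes did, and none passed the test. Pgd, which encodes the second dehydrogenase of the pathway, had 159, 176 and 170 on the Arid1a f/f arrays and 187, 271 and 200 on the Arid1a d/d arrays. The groups did not overlap, with a log2 fold change of 0.36 (interval 0.034 to 0.69, adjusted p = 0.221, limma), and all 4 probe sets of Pgd were above 0, at 0.26 to 0.41. Tkt, transketolase, was the brightest of these genes at 740, 643 and 731 against 712, 895 and 899. Its log2 fold change was 0.24 (interval -0.041 to 0.52) and that of Taldo1, transaldolase, 0.12 (interval -0.13 to 0.37).

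None of the 6 glycogen genes passed the test in limma, and the phosphorylases that break glycogen down had lower values on every Arid1a d/d array. At an unadjusted p under 0.05, 3 of the 6 were lower and 0 higher, where 13.5% and 11.4% of all genes were. Pygl, the liver glycogen phosphorylase, had 32.4, 34.6 and 38.3 on the Arid1a f/f arrays and 29.4, 17.2 and 25.2 on the Arid1a d/d arrays (log2 fold change -0.58, interval -1.003 to -0.165, adjusted p = 0.123, limma). Pygb, the brain form, had 167, 162 and 139 against 122, 112 and 119. The genotypes were apart by more than the spread within either, yet the log2 fold change of -0.40 did not pass over all probe sets (interval -0.64 to -0.16, adjusted p = 0.0758, limma). Pygb passed with the trend and robust options of eBayes (adjusted p = 0.0420, limma) and when genes rather than probe sets were tested (adjusted p = 0.0464, limma). Gbe1, the branching enzyme of glycogen synthesis, had 4.94, 5.66 and 6.05 against 4.56, 4.23 and 4.77 (log2 fold change -0.29, adjusted p = 0.197, limma). Gys1, the glycogen synthase outside the liver, had 0.098 (interval -0.20 to 0.40). Pgm1 and Pgm2, phosphoglucomutase genes whose mouse symbols were once exchanged and are used here as the annotation gives them, had -0.060 and 0.045, with intervals within -0.28 to 0.32. Fbp2, the muscle fructose bisphosphatase of gluconeogenesis, was below the median of all intensities in both genotypes.

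**Figure D4:**
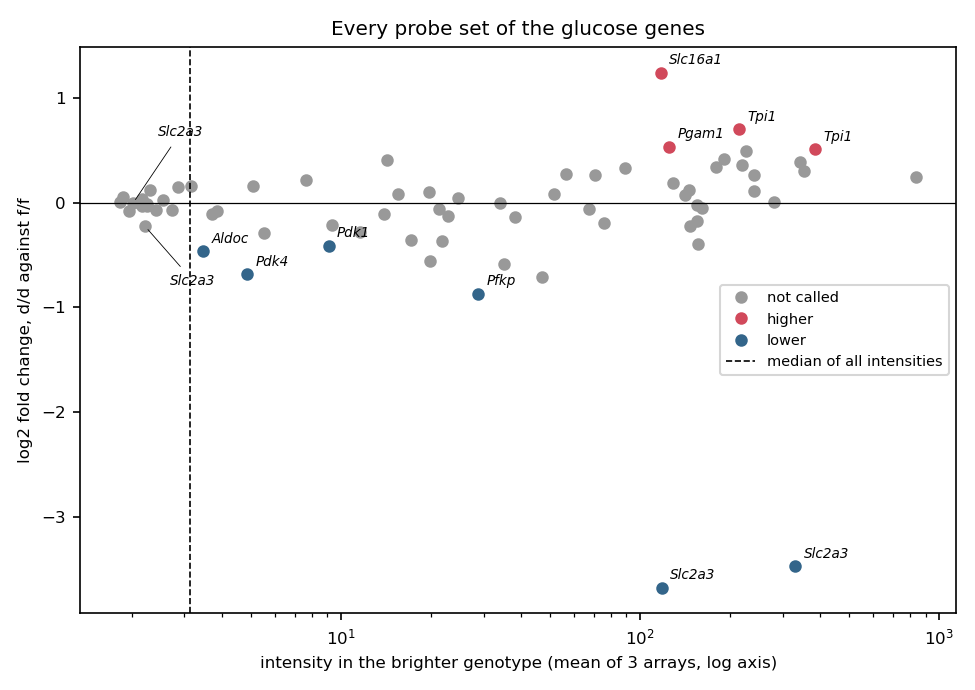
Vertical axis, log2 fold change of Arid1a d/d against Arid1a f/f uteri, set against the mean intensity in the brighter genotype (horizontal axis, log scale) for all 70 probe sets of the 35 genes. Red and blue points have an adjusted p under 0.05, and the dashed line is the median of all intensities, 3.12. The 14 probe sets left of the line lie between -0.23 and 0.15 and none of them passed, while Slc2a3 has probe sets on both sides.

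Of 89 further genes of these pathways and their regulators, 80 were measured, of which 1 was higher and 6 were lower at an adjusted p under 0.05 in limma (1.25% and 7.5%, against 3.37% and 4.06% of all genes). At an unadjusted p under 0.05, 9 were higher (11.2%, against 11.4% of all genes) and 20 lower (25.0%, against 13.5% of all genes). This list was likewise chosen with earlier results known, and 63 of the 80 genes stayed without dim probe sets. These shares cannot show an excess either. Txnip, the thioredoxin-interacting protein gene, which glucose induces and whose product restrains glucose uptake, fell most. It had 295, 376 and 404 on the Arid1a f/f arrays and 166, 98.8 and 146 on the Arid1a d/d arrays. All Arid1a d/d arrays were below all Arid1a f/f arrays (log2 fold change -1.41, standard error 0.20, adjusted p = 0.00879, limma), its second probe set passed at -1.20, and its call was kept whichever array was left out. Arrdc4, a related arrestin gene with the same inducer, was chosen after its values were seen and had -0.73 (adjusted p = 0.0545, limma) with no overlap. The second probe set of Arrdc4 had -0.039. Mlxip, another regulator gene of this list, went the other way at 0.43 with no overlap and did not pass (adjusted p = 0.0795, limma). Of the 11 transcription and uptake regulators measured, 6 were above 0 and 5 below. Epas1, which encodes HIF-2 alpha and is high in endothelium, fell from 298, 287 and 327 to 218, 185 and 173 (log2 fold change -0.67, adjusted p = 0.0181, limma). The second probe set of Epas1 had -0.16 and did not pass, and with both averaged the value was -0.42. Hif1a had 0.039 (adjusted p = 0.883, limma). Insr, the insulin receptor gene, fell at -0.58, but with its 3 probe sets averaged the value was -0.17 and did not pass.

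The other lower genes were Slc2a13, which encodes a myo-inositol carrier of the GLUT family, H6pd, the hexose-6-phosphate dehydrogenase of the endoplasmic reticulum, and Pygm, the muscle glycogen phosphorylase. Their log2 fold changes were -0.70 (adjusted p = 0.0241, limma), -0.56 (adjusted p = 0.0456, limma) and -0.49 (adjusted p = 0.0420, limma). Adpgk, an ADP-dependent glucokinase gene, was the higher one at 0.49 (adjusted p = 0.0373, limma). The second probe set of Adpgk had 0.14 and did not pass, and with both averaged the value was 0.31. In the fits that left out 1 array, Txnip kept its call in 6 of 6, Slc2a13 in 2, Epas1, H6pd and Insr in 1 each, and Pygm and Adpgk in 0. H6pd also lost its call with median centring, Pygm with the trend and robust options of eBayes, and Adpgk with those options and without probe sets of the suffixes _s_at and _x_at. The lower genes of this list numbered 1, 2 and 1 when Arid1a f/f replicate 1, 2 or 3 was omitted, and 3, 1 and 5 when it was replicate 1, 2 or 3 of Arid1a d/d, with 0 higher in each. Pkm, pyruvate kinase, had 0.084, and Bsg, the chaperone of the lactate carriers, -0.11, neither of which passed. The glycogenin gene Gyg, the UDP-glucose enzyme gene Ugp2 and the pyruvate dehydrogenase gene Pdha1, also named after their values were seen, had -0.25, -0.018 and -0.16 and did not pass.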

How the data were processed

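The authors hybridised biotin-labelled RNA from whole uteri to Affymetrix mouse arrays, 1 per sample, and the deposited values are RMA intensities after global scaling (no version is given in the submitters' processing notes). They are linear, from 1.29 to 4479. The methods set the trimmed mean to 100, which the table does not show, and the sources used here do not say how it was rescaled. Values were log2-transformed, and a linear model per probe set (limma 3.58.1, R 4.3.3) compared the genotypes with a two-sided moderated test and Benjamini-Hochberg adjustment over 45037 probe sets, after a test on simulated data. Gene names came from the platform annotation (34945 name 1 gene, 932 several, 9160 are unnamed here). The brightest probe set stood for a gene. Every gene of the list was accounted for, and those past the test, without overlap or with a log2 fold change of at least 0.5 in size were described array by array, as were others for context. Members and lists were chosen with earlier results of these data known. The alternatives were the replicate block, 2 other normalizations, a filter on dim probe sets, other variance options, the methods' t-test, other probe sets per gene and leaving out each array. With 3 arrays per genotype, their number limits the precision.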

Additional observations from a re-analysis of the deposited data

How the results depend on the processing

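Higher and lower genes among the 35 numbered 3 and 4 with quantile normalization, median centring and the replicate block, 3 and 3 without dim probe sets, and 2 and 3 both without probe sets of the suffixes _s_at and _x_at and as the mean of all probe sets. They numbered 3 and 5 with the trend and robust options of eBayes. The methods' t-test gave 0 and 0 after Benjamini-Hochberg adjustment, and 4 higher and 7 lower at an unadjusted p under 0.05. Leaving out 1 array in turn gave 0 to 3 higher and 1 to 3 lower genes in limma. These fits also have fewer arrays, and the cause of the moved counts was not tested. Among the 80 further genes 0 were higher and 1 to 5 lower whichever array was left out, and 0 and 0 with the methods' t-test, where 6 were higher and 15 lower at an unadjusted p. The 1 higher gene became 0 with the replicate block, with the trend and robust options and without probe sets of those suffixes. The labels do not say whether the replicate numbers pair the arrays. Same-numbered arrays correlated at -0.0036, 0.047 and 0.14 in their deviations from the genotype means. Of the 3 Arid1a d/d arrays, 1 correlated best with another number and the others with their own. With so few arrays these correlations cannot decide whether the arrays are paired. With the replicate block Pfkfb3 passed (adjusted p = 0.0211, limma) and Aldoc (adjusted p = 0.0546, limma), H6pd and Adpgk lost their calls. Slc2a1 turned to -0.012 as the mean of its probe sets. The within-array difference of Hk1 and Hk2, -0.069, ranged from -0.36 to 0.29 when 1 array was left out and was above 0 without replicate 1 of Arid1a f/f (0.060) or replicate 2 of Arid1a d/d (0.29). That of Pgm1 and Pgm2, -0.11, ranged from -0.25 to 0.035 and was above 0 only without replicate 2 of Arid1a d/d. That of Slc2a1 and Slc2a3 was 0.30 without probe sets of those suffixes, where Slc2a3 was below the median of all intensities in both genotypes. Under quantile normalization and median centring the lower genes among the further 80 numbered 7 and 5.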
